A study of Mus musculus with 33 samples.

Results

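The cells that wrap the vessels of bone marrow were followed here through 10 genes chosen by name. Lepr, Adipoq, Ebf3 and Foxc1 mark the reticular stromal cells around the sinusoids. Pdgfra and Pdgfrb encode the platelet-derived growth factor (PDGF) receptors of mesenchymal cells. Acta2, Myh11, Tagln and Cspg4 mark mural cells, the smooth muscle cells and pericytes on vessel walls. The 10 genes were 10 of the 38899 genes listed in each of 4 RNA-seq tables, and each of the 10 had a row in every table. They were chosen as known markers with earlier results of these data known, and no cut on their levels was used.

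In bone marrow, stromal cells that carry the leptin receptor Lepr lie along the sinusoids and are the main source of the chemokine Cxcl12, which keeps hematopoietic stem cells in place. Many of these cells express Adipoq, the adipocyte hormone adiponectin, and the transcription factors Ebf3 and Foxc1 maintain them. Arterioles carry smooth muscle cells, whose contractile genes Acta2, Myh11 and Tagln are switched on by serum response factor at short A/T-rich sequences called CArG boxes, while PDGF-B from endothelial cells recruits mural cells through Pdgfrb.

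The study profiled endothelial and blood cells of mouse bone in 11 groups of 3 libraries, all from C57BL/6 mice aged 8 to 12 weeks. Bones were crushed and digested with collagenase, and cells other than the unsorted marrow were sorted by flow cytometry before RNA extraction. None of the groups was sorted for stromal or mural cells, so the 10 genes were read in cells sorted for something else or not sorted.

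The first table held 5 groups. Untreated wildtype mice gave 3 of them: unsorted marrow (BMC), cells without blood lineage markers (Lin-) and LSK, the fraction that holds stem and progenitor cells. Bone endothelial cells (bone EC) were the GFP+ cells of untreated Cdh5-mTnG mice, whose reporter follows the endothelial cadherin gene Cdh5, and irradiated bone EC came from the same strain after 9 Gy. The second table held Vav1 control EC and Vav1 DTX EC. The labels give both of these groups the alleles Vav1-Cre, R26-DTR and Cdh5-mTnG and diphtheria toxin, so only the library titles separate the controls from the toxin group. Vav1-Cre is active in blood cells, in which the diphtheria toxin receptor allele DTR is then expressed. The third table held Apln+ EC, from tamoxifen-treated Apln-CreERT2 R26-mTmG mice, and diaphysis EC, from the femoral shaft of untreated Cdh5-mTnG mice. The fourth held 9Gy1D EC, from Cdh5-mTnG mice given 9 Gy, and Esm1+ EC, from tamoxifen-treated Esm1-CreER R26-mTmG mice. The time between irradiation and sorting is not given in the labels. Nothing in the labels says whether the 3 libraries of a group came from separate animals, so p-values measure the spread between libraries, which may be technical.

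The promoters of 3 members are shown first: Acta2 and Ebf3 for their CArG boxes, the elements of smooth muscle genes, and Adipoq for its cluster of CCAAT boxes, which occur in many promoters. RefSeq (GRCm38.p6) gave windows upstream of the start for 7 of the 10 genes, Lepr with 2 starts, and the 250 bases before each start were searched on both strands. For Adipoq, at chr16:23146286-23146535 on the plus strand, capitals mark the CCAAT boxes (CCAAT, or ATTGG on the other strand).
Adipoq: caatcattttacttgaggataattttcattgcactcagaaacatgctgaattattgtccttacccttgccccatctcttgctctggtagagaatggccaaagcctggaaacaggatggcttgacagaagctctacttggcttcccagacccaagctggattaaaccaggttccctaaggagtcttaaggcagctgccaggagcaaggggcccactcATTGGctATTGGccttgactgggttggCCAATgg
For Ebf3, at chr7:137314446-137314695 on the minus strand, capitals mark a CArG box, 73 to 64 bases before the start.
Ebf3: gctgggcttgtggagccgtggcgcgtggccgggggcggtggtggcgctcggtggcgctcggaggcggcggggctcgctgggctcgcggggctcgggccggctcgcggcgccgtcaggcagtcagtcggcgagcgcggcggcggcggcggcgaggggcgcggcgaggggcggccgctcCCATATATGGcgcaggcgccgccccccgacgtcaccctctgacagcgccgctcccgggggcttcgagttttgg
For Acta2, whose window overlaps an annotated 5′ UTR, only the 30 bases around each of 2 sites are given, at chr19:34255438-34255467 and chr19:34255388-34255417 on the minus strand, with capitals for a CArG box that has 1 C or G in its core.
Acta2 distal site: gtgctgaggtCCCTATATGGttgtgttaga
Acta2 proximal site: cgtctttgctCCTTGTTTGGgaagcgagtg

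Adipoq held 3 CCAAT boxes. Among the 32851 RefSeq windows of this length 2.79% held 3 or more and 33.8% held at least 1, and single boxes also lay in 1 Lepr window and in the Foxc1 window. Acta2 held 2 CArG boxes with 1 C or G in the core, a form found at least once in 7.24% and at least 2 times in 0.548% of the windows. That relaxed form was searched after the sequences had been read. The strict CArG box, present in 1.47% of the windows, occurred in Ebf3 and in none of the other matched windows. No matched window held TCCCNNGGGA, a core motif of the EBF factors, which 0.779% of all windows held. The Ebf3 window was 80.0% G and C and the Adipoq window 48.8%. A match of letters is a description and says nothing of binding.

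The values are FPKM, reads per kilobase of transcript and per M reads, so levels of different genes can be set side by side. Libraries held between 1.55 M reads (LSK) and 12.29 M reads (Vav1 DTX EC). One library pair, Esm1+ EC 1 and 2, differed much less than any other (chi-square per gene 1.37, against 2.92 to 167 in the other pairs), and averaging it changed no count of called members. The endothelial markers, 12 genes, summed to 1574 to 2045 FPKM in bone EC and to 19 to 23.8 FPKM in BMC. The sorted endothelial groups were mixed: neutrophil markers summed to 43840 to 44720 FPKM in bone EC, and the leukocyte gene Ptprc stood at 43.3 to 72.7 FPKM beside the endothelial gene Cdh5 at 64.0 to 93.7 FPKM. BMC and Lin- libraries were made with another kit (stranded total RNA) than all others, and wherever either is compared with bone EC or LSK the kit cannot be told apart from the population. In bulk libraries like these, fewer cells of a type and less RNA per cell cannot be told apart.

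Lepr and Adipoq were read in all 8 endothelial groups and in Lin- cells, and were near 0 in whole marrow. Lepr, on chromosome 4 (101717404 to 101815352, plus strand, GRCm38), encodes the leptin receptor. In bone EC its level was 7.91, 12.2 and 15.5 FPKM and in LSK 1.55, 1.64 and 0.760 FPKM. In Lin- it was 20.8, 6.10 and 45.2 FPKM, and in BMC 0.196, 0.186 and 0.546 FPKM. Bone EC and Lin- overlapped, and both stood above LSK, which stood above BMC. Across the tables, which were normalized separately, diaphysis EC had the highest mean (26.1, 30.8 and 18.8 FPKM). Scaling all libraries by the median ratio of their genes to the mean over libraries (median-of-ratios) put Lin- first instead.

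Adipoq, on chromosome 16 (23146536 to 23158028, plus strand), was the most abundant of the 10 genes in bone EC at 27.9, 52.8 and 68.7 FPKM. Diaphysis EC held 98.9, 115.7 and 111.6 FPKM, the highest of the 11 groups. In BMC the 3 libraries had 0, 2 and 5 Adipoq reads, or 0, 0.316 and 0.697 FPKM. LSK was as low, at 0.316, 1.05 and 0.298 FPKM, and Lin- spread over 31.1, 10.4 and 58.2 FPKM. The Lin- library with the least Lepr, the second, also had the least Adipoq.

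**Figure D1:**
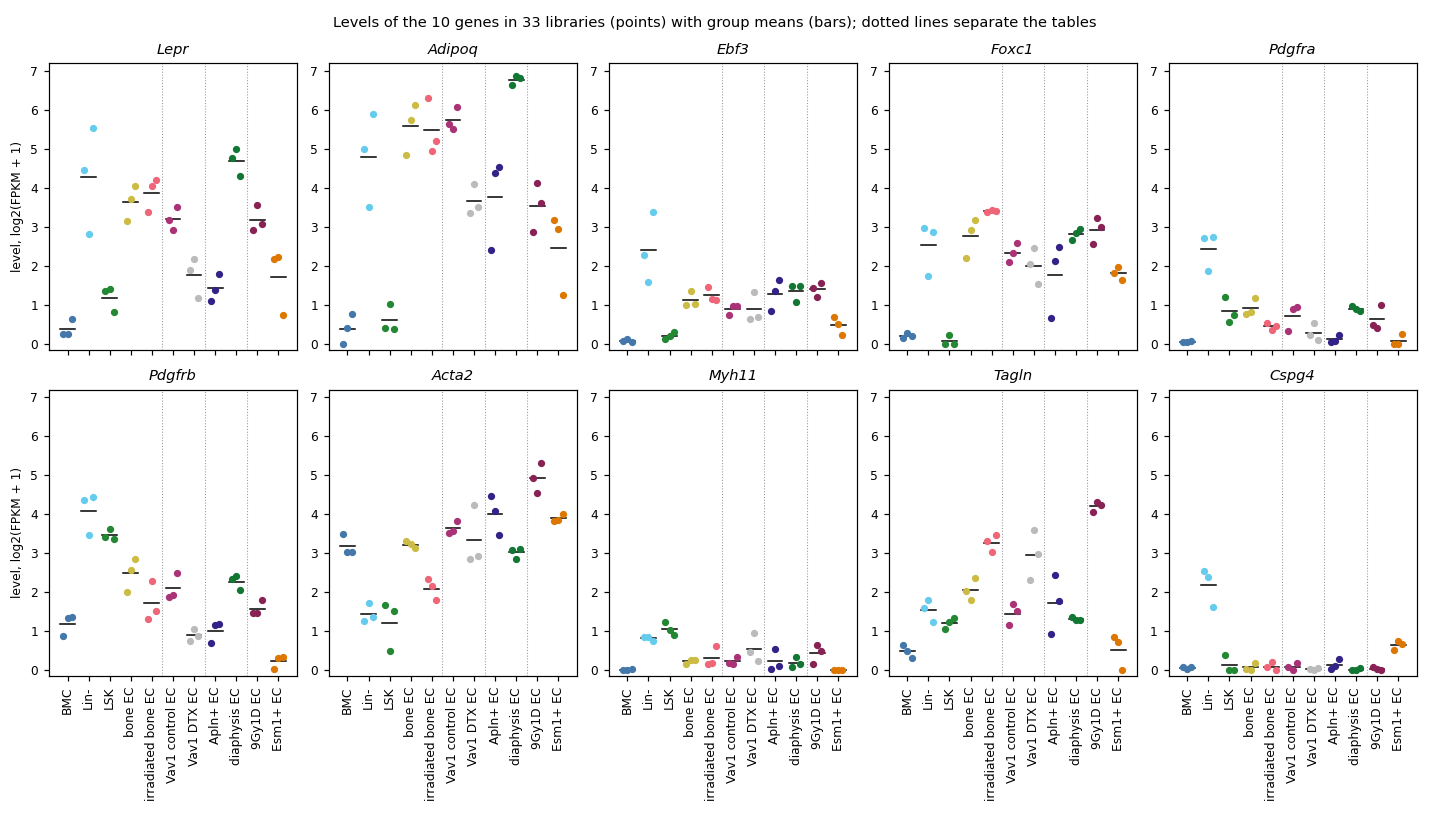
Level of each of the 10 genes as log2(FPKM + 1) (y axis) in the 33 libraries of the 11 groups (x axis), 1 panel a gene; points are libraries, bars are group means and dotted lines separate the tables. Adipoq runs from 0 in a BMC library to the level of diaphysis EC, which is 115.7 FPKM at most, while Myh11 stays at or below 1.38 FPKM in every library.

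Lepr and Adipoq moved together from library to library, with a Pearson r of log2 levels of 0.936 in the first table (15 libraries) and of 0.947, 0.937 and 0.941 in the others (6 libraries each). The libraries of a table share groups, so these r values describe the tables and carry no test. Over 6552 genes, the genes most like the pair by mean r over the 4 tables were Serping1, a complement inhibitor, at 0.981 and Cxcl12 at 0.973, followed by Agt, which encodes angiotensinogen, at 0.957, Islr at 0.945 and C1ra, a complement protease, at 0.918. Cxcl12 averaged 127 FPKM in bone EC, 110 in Lin-, 3.01 in LSK and 1.12 in BMC. Serping1 averaged 60.2, 47.3, 1.66 and 0.526 FPKM in the same order.

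Adipocyte genes were divided in whether they were read where Adipoq was. Cfd, which encodes adipsin, was listed at 0 in BMC and LSK and averaged 29.9 ± 6.22 FPKM in bone EC and 106 ± 28.5 FPKM in diaphysis EC. Fabp4, a fatty acid binding protein gene that endothelial cells also express, averaged 2090 ± 552 FPKM in bone EC and 1.04 ± 0.315 FPKM in LSK. Lep, which encodes leptin, was listed at 0 in every group but LSK (0.286 FPKM), and the lipid droplet gene Plin1 stayed at or below 0.44 FPKM in every group. Cfd, Fabp4, Lep and Plin1 were singled out here after their values were seen.

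**Figure D2:**
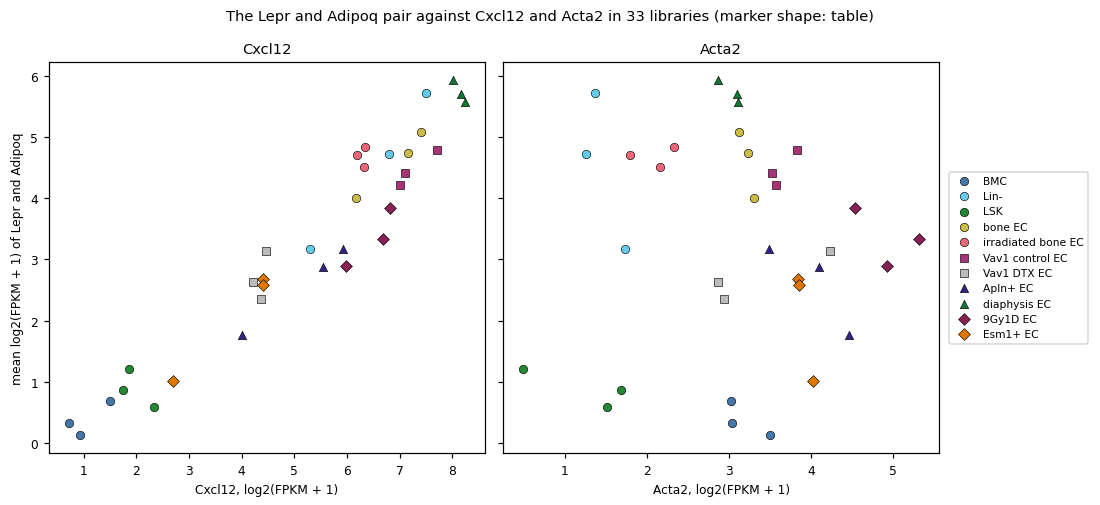
Mean log2(FPKM + 1) of Lepr and Adipoq (y axes) in each of the 33 libraries against Cxcl12 (x axis of the left panel) and against Acta2 (x axis of the right panel), both as log2(FPKM + 1), with groups by colour and tables by marker shape. The libraries lie along a rising line for Cxcl12, with BMC and LSK at its low end, and in no such line for Acta2, where the r values within the tables were 0.034, 0.526, -0.953 and 0.417 for Adipoq.

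The transcription factors Ebf3 and Foxc1 were highest in different groups. Ebf3 (chromosome 7, 137193673 to 137314445, minus strand) had its highest level in Lin-, at 3.85, 1.99 and 9.49 FPKM. In bone EC it was 0.980, 1.56 and 1.04 FPKM, and no BMC library exceeded 0.087 FPKM. The gene overlaps annotated antisense genes, and how the counting treated strand is not given in the sources used here. Foxc1 (chromosome 13, 31806633 to 31812476, plus strand) was highest in irradiated bone EC, at 9.51, 9.88 and 9.62 FPKM, above bone EC at 3.63, 6.56 and 8.08 FPKM. Lin- held 6.87, 2.34 and 6.32 FPKM, while 2 of 3 LSK libraries had no Foxc1 read and the other stood at 0.181 FPKM.

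Pdgfra and Pdgfrb, the receptors for the PDGF ligands, were both highest in Lin-. Pdgfra (chromosome 5, 75152292 to 75198215, plus strand), the receptor of mesenchymal progenitors, stood at 5.52, 2.66 and 5.73 FPKM in Lin- and at 0.690, 0.776 and 1.27 FPKM in bone EC. No BMC library exceeded 0.057 FPKM, and 2 of 3 Esm1+ EC libraries had no Pdgfra read. Pdgfrb, the pericyte receptor for PDGF-B, stood at 19.8, 10.1 and 20.7 FPKM in Lin-. LSK followed at 9.72, 11.3 and 9.40 FPKM, above bone EC at 3.04, 4.95 and 6.29 FPKM without overlap. Pdgfrb was the only member called higher in LSK than in bone EC, as tested further on.

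The 4 mural genes did not follow one another. Acta2, smooth muscle actin (chromosome 19, 34241090 to 34255590, minus strand), was highest in 9Gy1D EC at 29.4, 22.3 and 39.0 FPKM. It was as high in BMC (10.3, 7.23 and 7.13 FPKM) as in bone EC (8.90, 8.44 and 7.74 FPKM), and lower in Lin- at 1.4, 2.33 and 1.57 FPKM. BMC thus held Acta2 with almost none of the other contractile genes: its Tagln came from 4, 3 and 2 reads and its Myh11 was 0, 0 and 0.029 FPKM.

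Tagln, which encodes the actin-binding protein transgelin (chromosome 9, 45929619 to 45936058, minus strand), was also highest in 9Gy1D EC, at 15.6, 18.8 and 18 FPKM. Irradiated bone EC came next with 8.89, 7.24 and 10.1 FPKM, and bone EC held 3.10, 2.47 and 4.17 FPKM from 18, 12 and 24 reads. Tagln overlaps Pcsk7 on the opposite strand, so reads of the shared stretch cannot be told apart. Pcsk7, given here for this overlap after its values were seen, ran from 4.67 to 25.7 FPKM over all libraries.

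Myh11, smooth muscle myosin heavy chain (chromosome 16, 14194535 to 14291372, minus strand), was low throughout. Its highest group was LSK, at 1.38, 1.03 and 0.870 FPKM from 21, 19 and 14 reads, followed by Lin- at 0.817, 0.807 and 0.683 FPKM. In bone EC 3, 4 and 5 reads gave 0.124, 0.197 and 0.208 FPKM. LSK libraries were the shallowest, yet their reads were spread over more genes. With no minimum level, 30698 genes had a read in bone EC or LSK and 30995 in LSK or Lin-, against 21757 in bone EC or Lin-. Whether Myh11 in LSK stands apart from this spread of low levels was not tested. The gene never passed the minimum level for a test (at least 1 FPKM in 3 or more libraries). Cspg4, the proteoglycan NG2 of pericytes (chromosome 9, 56865033 to 56899870, plus strand), was read mainly in Lin-, at 4.86, 4.22 and 2.09 FPKM. Esm1+ EC held 0.426, 0.698 and 0.598 FPKM, and no library of any other group exceeded 0.325 FPKM.

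Other mural genes were likewise spread over groups. Notch3, a receptor of arterial smooth muscle, averaged 4.90 FPKM in Lin- and at most 0.652 FPKM elsewhere. Myocd, the coactivator that drives smooth muscle genes, averaged 0.730 FPKM in LSK and at most 0.026 FPKM elsewhere. The limit given above for Myh11 in LSK holds for Myocd too. Notch3 and Myocd were singled out after their values were seen, and the wider list of 16 mural genes ran otherwise. Its sum averaged 62.9 FPKM in Lin- and 14.3 FPKM in LSK, against 234.6 FPKM in bone EC and 652.8 FPKM in irradiated bone EC. Kcnj8, which endothelial cells also express, held 90.8, 108.0 and 147.1 FPKM of it in bone EC. Acta2 and Myh11 had r values of -0.855, 0.521, 0.02 and 0.701 over the 4 tables, and Acta2 and Tagln had -0.095, 0.085, 0.169 and 0.882. The genes nearest to the Acta2 and Myh11 pair, Mir22hg (mean r 0.811) and Mef2a (0.772), were less like it than Serping1 was like the stromal pair.

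The balance of the stromal pair (Lepr, Adipoq) over the mural pair (Acta2, Myh11) was taken as the difference of their mean log2(FPKM + 1) in each library. It was highest in diaphysis EC at 4.12 ± 0.20 (SD, n = 3), followed by irradiated bone EC at 3.47 ± 0.13, Lin- at 3.40 ± 1.41, bone EC at 2.88 ± 0.57 and Vav1 control EC at 2.53 ± 0.18. It was lower in Vav1 DTX EC at 0.75 ± 0.21, 9Gy1D EC at 0.67 ± 0.50, Apln+ EC at 0.48 ± 0.93 and Esm1+ EC at 0.14 ± 0.99. LSK stood at -0.25 ± 0.61 and BMC at -1.22 ± 0.39. All 3 libraries of BMC were below 0, as were 2 of 3 LSK libraries (-0.59 and -0.61) and single libraries of Esm1+ EC (-1.004) and Apln+ EC (-0.49). The Esm1+ EC mean turns to -0.18 with a pseudocount of 5, and these values depend on the pseudocount throughout. With a pseudocount of 0.1, Esm1+ EC stood at 1.387, 9Gy1D EC at 1.382 and Vav1 DTX EC at 1.278. The order of these low groups is therefore not fixed.

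**Figure D3:**
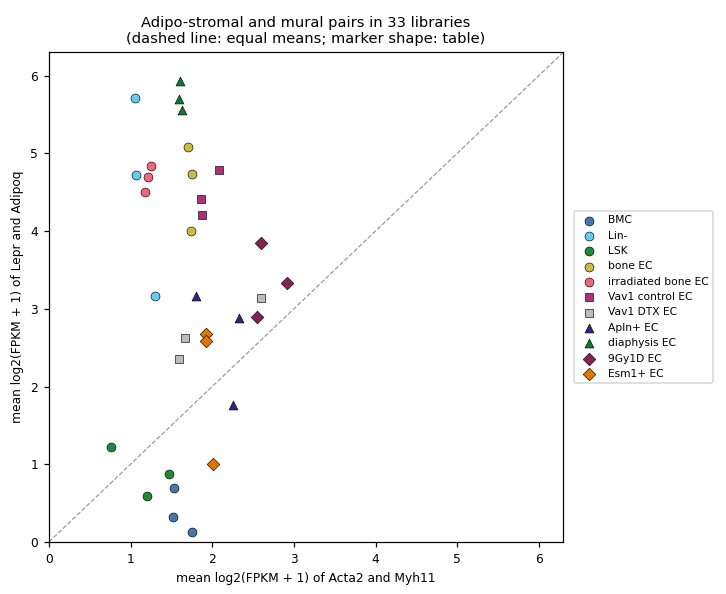
Mean log2(FPKM + 1) of Lepr and Adipoq (y axis) against that of Acta2 and Myh11 (x axis) in each of the 33 libraries, with groups by colour and tables by marker shape; the dashed line marks equal means. The libraries spread from 0.13 (BMC) to 5.93 (diaphysis EC) along the stromal axis and from 0.76 to 2.91 along the mural axis, and only BMC lies below the line with all 3 libraries. In BMC and the endothelial groups the mural axis rests largely on Acta2.

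The next comparisons asked where in the marrow the 10 genes are expressed. Bone EC were far above LSK in both stromal hormone and receptor genes. Adipoq averaged 49.8 ± 20.5 FPKM in bone EC and 0.554 ± 0.427 FPKM in LSK, where it came from 1, 4 and 1 reads (log2 difference 4.97, SE 0.33, adjusted p = 9.2e-06, limma with Benjamini-Hochberg adjustment over all genes tested, as in every adjusted p here). Lepr was 9.02-fold higher (log2 difference 2.45, adjusted p = 0.00012) and Foxc1 2.69 higher on the log2 scale (adjusted p = 7.1e-05). Acta2 rose by 1.997 (adjusted p = 0.00069), and Pdgfrb went the other way, 2.13-fold higher in LSK (-0.99, adjusted p = 0.0053). Of the 10 genes 6 passed the minimum level and all 6 passed the test, where 60.1% of all genes tested did. Lepr, Adipoq, Foxc1 and Acta2 were below 1 FPKM in some or all LSK libraries and needed bone EC to reach the minimum. Tagln, 0.84 higher (adjusted p = 0.0068), lost its call on the TPM scale (0.47, adjusted p = 0.15) and in a test on reads (0.78, adjusted p = 0.096). Endothelial markers moved the same way (12 of 12 higher in bone EC), as did neutrophil (7 of 7), erythroid (6 of 6), B-cell (6 of 6) and monocyte markers (5 of 5 tested), and their part in these differences was not tested.

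Myh11 was 6.22-fold higher in LSK than in bone EC, on mean levels that were not tested. As given above, LSK libraries had low reads spread over more genes. The 15 genes listed for Lepr+ reticular cells (none of them among the 10) had 13 tested members, of which 11 were higher in bone EC and none lower, with a median log2 difference of 2.38 against -0.05 over all genes. Cxcl12 rose from 3.01 ± 0.896 to 127 ± 50.1 FPKM and the adhesion gene Vcam1 from 2.06 ± 0.223 to 180 ± 25.5 FPKM. Of the 16 genes listed for mural cells 7 were tested and all 7 were higher, led by the potassium channel gene Kcnj8, at 115 ± 28.8 against 0.561 ± 0.214 FPKM. Endothelial cells also express Kcnj8, Vcam1 and Mcam.

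Set against Lin-, bone EC held less of the receptors and more Acta2. Pdgfra was 5.09-fold lower (log2 difference -1.52, SE 0.27, adjusted p = 0.0016), Pdgfrb 3.55-fold lower (-1.61, adjusted p = 0.003), and Cspg4, at 1, 0 and 4 reads in bone EC, was lower as well (-2.11, adjusted p = 0.00021). Acta2 was 4.73-fold higher (1.77, SE 0.18, adjusted p = 9.4e-05), with no overlap of libraries. Ebf3 was 4.28-fold lower (-1.29, adjusted p = 0.027), a call that any bone EC library decided (adjusted p between 0.054 and 0.085 with 1 of them left out). Lepr (-0.63, adjusted p = 0.4), Adipoq (0.78, adjusted p = 0.28), Foxc1 (0.24, adjusted p = 0.6) and Tagln (0.52, adjusted p = 0.071) did not pass. With 5 of 9 tested genes called, the share was below the 66.6% of all genes. Cspg4, below 1 FPKM in every bone EC library, entered the test only through Lin-. Pdgfra and Ebf3, below 1 FPKM in some bone EC libraries, also needed Lin- to enter. Lepr moved to -1.35 (adjusted p = 0.021) without the second Lin- library, which had the least of it, and Adipoq to 1.32 (adjusted p = 0.05) without the third, which had the most; Tagln was called when all libraries of the table shared 1 fit (0.52, adjusted p = 0.027). Myh11 was not tested.

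In Lin- against BMC, Pdgfrb was 12.8-fold higher in Lin- (log2 difference 2.90, adjusted p = 0.00026), Adipoq 4.41 higher on the log2 scale (adjusted p = 0.00076) and Lepr 3.89 higher (adjusted p = 0.0019). Ebf3 (2.34, adjusted p = 0.0034), Pdgfra (2.38, adjusted p = 0.00031), Foxc1 (2.32, adjusted p = 0.0012), Cspg4 (2.12, adjusted p = 0.00053) and Tagln (1.06, adjusted p = 0.0037) were higher as well. Acta2 alone fell, 4.66-fold (-1.74, SE 0.20, adjusted p = 0.00045). All 9 genes tested were called, where 57.5% of all genes passed, but 7 of them (all but Pdgfrb and Acta2) were below 1 FPKM in every BMC library and entered the test only through Lin-, where they were high. The count is therefore largely set by the minimum level, and without any 1 Lin- library only 2 genes were tested.

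Bone EC against BMC, which reuses the same BMC libraries, gave a call for 5 of 6 genes tested, where 70.4% of all genes passed. Of these Lepr, Adipoq, Foxc1 and Tagln were below 1 FPKM in every BMC library and entered the test only through bone EC, which largely sets the count. Without any 1 bone EC library 2 genes were tested and 1 was called. Adipoq was 5.19 higher in bone EC on the log2 scale (adjusted p = 8.1e-06), Lepr 3.26 (adjusted p = 1.5e-05), Foxc1 2.56 (adjusted p = 6.1e-05) and Tagln 1.58 (adjusted p = 0.00018). Pdgfrb was 3.59-fold higher (adjusted p = 0.0022). Acta2 differed by 0.04 with a 95% interval of -0.33 to 0.40 (adjusted p = 0.85), and was called higher on the TPM scale (0.43, adjusted p = 0.044).

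LSK against Lin- shares the Lin- libraries with the comparisons above. Lepr was 18.3-fold lower in LSK (log2 difference -3.08, adjusted p = 0.004) and Pdgfra 5.68-fold (-1.61, adjusted p = 0.0026). Adipoq (-4.20, adjusted p = 0.00061), Foxc1 (-2.45, adjusted p = 0.00067), Ebf3 (-2.21, adjusted p = 0.0032) and Cspg4 (-2.05, adjusted p = 0.00061) were lower too, and no fold is given for them because each rests on 6 reads or fewer over the 3 LSK libraries. These were 6 of 9 genes tested, where 58.9% of all genes passed. Ebf3, Foxc1 and Cspg4 were below 1 FPKM in every LSK library, and Lepr, Adipoq and Pdgfra in some. All 6 therefore needed Lin-, where they were high, to enter the test, which bears on the count. Pdgfrb (-0.62, adjusted p = 0.081), Acta2 and Tagln did not pass, and all 3 turned positive on the TPM scale (0.22, 0.34 and 0.29), on which the median of all genes was 1.178 in place of 0.07. Pdgfrb was called lower without the second Lin- library (-0.94, adjusted p = 0.0039) and with median-of-ratios scaling (-0.71, adjusted p = 0.05).

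The irradiation comparison asked what 9 Gy did to the sorted bone EC. Acta2 and Tagln, both listed as mural markers, parted: Acta2 fell and Tagln rose. Acta2 was as high in BMC as in bone EC, and which cells carried either change was not tested. Acta2 went from 8.90, 8.44 and 7.74 FPKM to 4.03, 3.49 and 2.48 FPKM, with no overlap (2.51-fold lower; log2 difference -1.13, SE 0.18, adjusted p = 0.0023). Tagln went from 3.10, 2.47 and 4.17 to 8.89, 7.24 and 10.1 FPKM, again with no overlap (2.70-fold higher; 1.21, SE 0.20, adjusted p = 0.003). The difference of Acta2 over Tagln turned from 1.16 to -1.18 on the log2 scale, and irradiated bone EC was the only group whose 3 libraries all stood below 0. The calls were 2 of 7 genes tested, where 41.9% of all genes passed.

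Lepr and Adipoq stayed within the spread of their libraries after irradiation. Lepr was 9.38, 15.7 and 17.4 FPKM after 9 Gy against 7.91, 12.2 and 15.5 FPKM before (log2 difference 0.24, 95% interval -0.46 to 0.93, adjusted p = 0.55). Adipoq was 77.4, 29.9 and 35.7 FPKM against 27.9, 52.8 and 68.7 FPKM (-0.10, 95% interval -1.11 to 0.92, adjusted p = 0.88), with the first irradiated library highest. Foxc1 stood higher in every irradiated library (0.65, adjusted p = 0.074) and Pdgfrb averaged 2.43 ± 1.29 against 4.76 ± 1.63 FPKM (-0.77, adjusted p = 0.091). Foxc1 was called on the TPM scale (0.94, adjusted p = 0.023) and without the third bone EC library (0.85, adjusted p = 0.039), and Pdgfrb in a test on reads (-1.14, adjusted p = 0.031) and without the second irradiated library (-1.06, adjusted p = 0.026). Ebf3 differed by 0.12 (adjusted p = 0.62). Pdgfra, too low to be tested, was 0.457, 0.277 and 0.385 FPKM against 0.690, 0.776 and 1.27 FPKM, without overlap.

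Endothelial and blood markers moved with these values. Of 12 endothelial markers 11 were higher after irradiation (their sum was 4535 to 6126 against 1574 to 2045 FPKM) and 7 of 7 neutrophil markers were lower (928.5 to 4270 against 43840 to 44720 FPKM); their part was not tested. When libraries were scaled to the endothelial markers instead of to all reads, 77.4% of all genes were called, nearly all of them lower, and 6 members were called: Lepr turned to -0.997 (adjusted p = 0.004), Adipoq fell by 1.395 (adjusted p = 0.018), Pdgfrb by 1.76 (adjusted p = 0.00058) and Acta2 by 2.21 (adjusted p = 0.00015), while Tagln lost its call (0.10, adjusted p = 0.7). Pcsk7, which overlaps Tagln, was also higher after irradiation (0.85, adjusted p = 0.013).

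Among the genes that act with the members, the PDGF ligand genes Pdgfb and Pdgfd rose. Pdgfb, the endothelial ligand of Pdgfrb, went from 19.3 ± 4.11 to 42.6 ± 6.28 FPKM (1.11, adjusted p = 0.0039) and Pdgfd from 5.84 ± 0.711 to 12.2 ± 2.73 FPKM (0.93, adjusted p = 0.0074). Cdh13, the T-cadherin that binds adiponectin, rose by 0.62 (adjusted p = 0.014), so 3 of 6 tested partner genes rose and 1 fell. Of 8 tested mural genes 5 rose, among them Abcc9, at 172 ± 64.9 against 36.1 ± 5.31 FPKM, and the contractile gene Smtn, at 42.9 ± 10.1 against 20 ± 1.42 FPKM. Of 7 tested adipocyte genes 6 rose, led by the fatty acid transporter Cd36 (1.93, adjusted p = 0.00023) and the adipogenic factor Pparg (1.73, adjusted p = 0.00032), both of which endothelial cells of bone marrow also express. The reticular stromal list split, with 4 higher and 3 lower of 13: Vcam1 rose by 2.50 (adjusted p = 0.00025) and Hp, the haptoglobin gene, fell by 2.61 (adjusted p = 0.00054). Hp was also high in BMC, at 694 ± 171 FPKM. Among controllers of smooth muscle genes, Srf, which binds CArG boxes, fell by 0.60 (adjusted p = 0.013), while Tgfbr2 rose by 1.34 (adjusted p = 0.0015) and Klf4 by 0.95 (adjusted p = 0.03).

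The Vav1 comparison asked what changes in bone EC of the toxin group against the libraries titled as controls. The stromal pair fell together. Adipoq stood at 9.22, 16.1 and 10.5 FPKM in Vav1 DTX EC against 48.7, 44.6 and 65.8 FPKM (4.44-fold lower; log2 difference -2.08, SE 0.23, adjusted p = 0.0011). Lepr stood at 2.75, 3.50 and 1.27 FPKM against 8.11, 6.54 and 10.4 FPKM (3.33-fold lower; -1.45, SE 0.28, adjusted p = 0.01). Pdgfrb stood at 0.690, 1.09 and 0.855 FPKM against 2.68, 2.83 and 4.64 FPKM (3.85-fold lower; -1.20, SE 0.20, adjusted p = 0.006). In none of these 3 genes did the groups overlap, though the share of all genes without overlap is not given here.

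Tagln rose, at 3.99, 11.1 and 6.96 FPKM against 1.23, 2.24 and 1.87 FPKM (4.14-fold; 1.51, adjusted p = 0.015). Acta2 overlapped, at 6.28, 17.8 and 6.69 against 10.6, 10.9 and 13.3 FPKM (-0.30, adjusted p = 0.57). The second Vav1 DTX EC library was the highest in both, and without it Acta2 was lower with a call (-0.74, adjusted p = 0.0047). Foxc1 differed by -0.33 (adjusted p = 0.38). Ebf3 and Pdgfra were too low for a test, at 0.897 ± 0.539 and 0.229 ± 0.192 FPKM in Vav1 DTX EC, and Myh11 came from 34, 65 and 12 reads there (0.395, 0.946 and 0.177 FPKM). The calls were 4 of 6 genes tested, where 26.3% of all genes passed, and the Lepr and Tagln calls were lost without the first or the third control library (adjusted p = 0.051 for Lepr, 0.056 to 0.071 for Tagln). Pdgfrb, below 1 FPKM in some Vav1 DTX EC libraries, needed the control libraries to enter the test.

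The wider stromal list fell with the pair, 7 of 12 tested genes lower and 1 higher. Cxcl12 dropped from 157 ± 44.7 to 19.4 ± 1.76 FPKM (-2.92, adjusted p = 0.00016), the chemokine gene Cxcl14 from 18.8 ± 4.29 to 1.27 ± 0.179 FPKM and Chrdl1, a BMP antagonist, from 5.87 ± 1.72 to 0.472 ± 0.205 FPKM. Osteoblast genes fell too, 3 of 4 tested, among them Ibsp (-3.14, adjusted p = 0.0031). Of 7 tested mural genes 1 fell, the myosin light chain gene Myl9 (-1.26, adjusted p = 0.048) and none rose, and Tagln is not in that list. The erythroid markers were lower (6 of 6), with a sum of 1079 to 2124 FPKM against 27660 to 51200 FPKM, and so were the B-cell markers (6 of 6), at 20.4 to 23.6 against 434.7 to 574.5 FPKM. The 12 endothelial markers summed to 1375 to 3143 against 1450 to 1790 FPKM, and the part of these cells in the member differences was not tested. The adiponectin receptor gene Adipor1 fell from 201 ± 23.2 to 97.0 ± 7.85 FPKM (-1.04, adjusted p = 0.0019).

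The irradiation and the Vav1 contrast, in both of which B-cell and erythroid markers fell, differed in the stromal pair. The test of the difference itself (irradiated minus bone EC, less Vav1 DTX minus control) gave 1.69 for Lepr (SE 0.44, adjusted p = 0.017) and 1.99 for Adipoq (SE 0.54, adjusted p = 0.021). Those were the 2 calls of 7 genes tested, a share near the 26.7% of all genes that passed. Cxcl12 differed in the same direction (2.30, adjusted p = 0.0026). Foxc1 (0.97, adjusted p = 0.078, called without the third bone EC or the second Vav1 DTX EC library, adjusted p = 0.047 and 0.026), Acta2 (-0.83, adjusted p = 0.17), Pdgfrb (0.43, adjusted p = 0.45), Tagln (-0.31, adjusted p = 0.61) and Ebf3 (0.13, adjusted p = 0.77) did not pass. The 2 contrasts come from tables normalized separately, and each was taken within its own table; scaling to endothelial markers ended both calls (Lepr 0.93, adjusted p = 0.093; Adipoq 1.11, adjusted p = 0.17). The Adipoq call was also lost without the third Vav1 control EC library (adjusted p = 0.053) or the first Vav1 DTX EC library (adjusted p = 0.051).

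**Figure D4:**
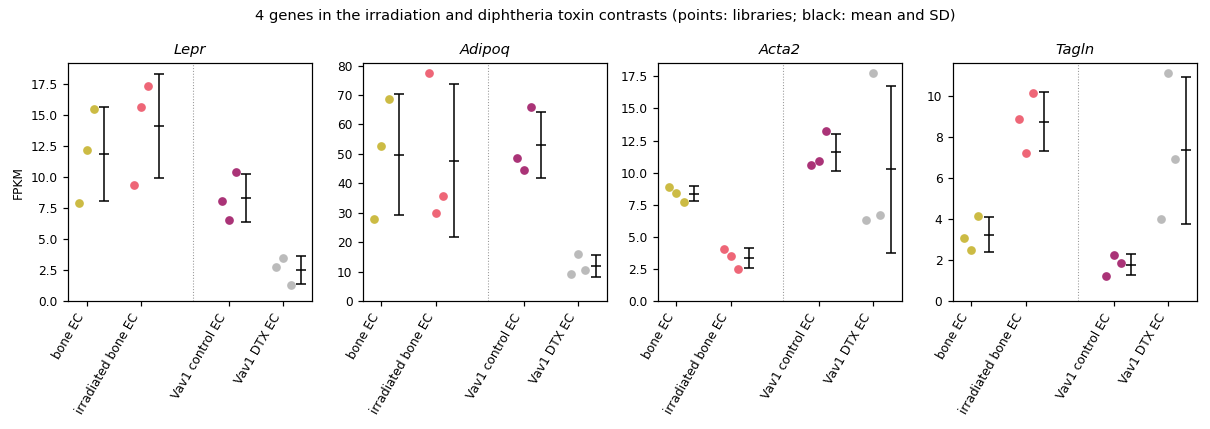
Level (y axes, FPKM, from 0) of Lepr, Adipoq, Acta2 and Tagln in bone EC, irradiated bone EC, Vav1 control EC and Vav1 DTX EC (x axes); points are libraries, black bars are means with SD, and the dotted line separates the tables. Lepr and Adipoq overlap between the irradiation groups and lie apart between the Vav1 groups. Tagln is higher in irradiated bone EC than in bone EC and in Vav1 DTX EC than in Vav1 control EC. The second Vav1 DTX EC library stands out in Acta2 at 17.8 FPKM.

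Apln+ EC against diaphysis EC compared labelled endothelial cells with those of the bone shaft, which also differ in alleles, tamoxifen and bone region. Lepr and Adipoq were much lower in Apln+ EC. Lepr stood at 1.16, 1.60 and 2.44 FPKM against 26.1, 30.8 and 18.8 FPKM (14.5-fold; log2 difference -3.26, SE 0.26, adjusted p = 0.0015). Adipoq stood at 4.30, 19.9 and 22.3 FPKM against 98.9, 115.7 and 111.6 FPKM (7.01-fold; -2.997, SE 0.56, adjusted p = 0.027). Neither gene overlapped between the groups, and the first Apln+ EC library held the least of both. That library also had more of the leukocyte gene Ptprc (103.2 FPKM, against 25.0 and 26.8) and less of the endothelial gene Cdh5 (14.2 FPKM, against 52.1 and 45.0) than the other 2. The endothelial markers summed to 1243 to 5837 FPKM in Apln+ EC and to 2121 to 3246 FPKM in diaphysis EC, and the neutrophil markers to 39870 to 134300 against 35450 to 46680 FPKM. The part of these cells was not tested.

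Pdgfrb was 3.68-fold lower in Apln+ EC, at 0.626, 1.25 and 1.26 FPKM against 4.04, 4.35 and 3.16 FPKM (-1.25, adjusted p = 0.016), and Pdgfra, not tested, averaged 0.0842 FPKM from 2, 3 and 11 reads against 0.876 FPKM. Acta2 pointed the other way, at 21.2, 16.1 and 10.2 FPKM against 7.55, 6.3 and 7.67 FPKM, with no overlap but no call (0.99, SE 0.27, adjusted p = 0.083). Foxc1 (-1.06, adjusted p = 0.26), Tagln (0.40, adjusted p = 0.62) and Ebf3 (-0.07, adjusted p = 0.91) overlapped or did not pass. The calls were 3 of 7 tested genes, where 7.49% of all genes passed. The Adipoq and Pdgfrb calls did not survive the loss of the second Apln+ EC library or of any diaphysis EC library (adjusted p between 0.063 and 0.15 for Adipoq, and between 0.054 and 0.12 for Pdgfrb), whereas without the first Apln+ EC library Acta2 and Tagln were called higher (0.76, adjusted p = 0.023; 0.79, adjusted p = 0.025).

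The stromal list had 8 of 14 tested genes lower in Apln+ EC and none higher. Cxcl12 averaged 40.2 ± 22.7 against 281 ± 21.4 FPKM and Chrdl1 0.564 ± 0.320 against 10.3 ± 2.15 FPKM. Among adipocyte genes Cfd, which encodes adipsin, was lowest relative to diaphysis EC (1.13 ± 0.207 against 106 ± 28.5 FPKM; -5.63, adjusted p = 0.00015). The mural list was split, with Mcam higher (104 ± 52.1 against 17.1 ± 3.64 FPKM) and Abcc9 lower. Of 7 tested fibroblast genes 2 were higher, among them Col1a1 at 11.8 ± 3.6 against 0.357 ± 0.180 FPKM, and 1 was lower. Of 5 tested osteoblast genes 1 was higher, Bglap at 18.3 ± 11 against 0.167 ± 0.290 FPKM, and 1 was lower, Runx2 (-1.44, adjusted p = 0.033).

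9Gy1D EC against Esm1+ EC differ in irradiation, alleles, tamoxifen and reporter at once, so these cannot be told apart. Tagln showed the widest gap among the members tested. Tagln stood at 15.6, 18.8 and 18 FPKM in 9Gy1D EC against 0.811, 0.659 and 0 FPKM in Esm1+ EC, where it came from 9, 8 and 0 reads (35.7-fold; log2 difference 3.68, SE 0.25, adjusted p = 1e-04). Acta2 stood at 29.4, 22.3 and 39.0 FPKM against 13.3, 13.4 and 15.2 FPKM (2.16-fold; 1.03, SE 0.20, adjusted p = 0.0063). Neither gene overlapped between groups. Myh11 came from 5, 25 and 17 reads in 9Gy1D EC and from none in Esm1+ EC, which puts it at least 6.04-fold higher against a floor of 3 reads per library, without a test.

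Pdgfrb was higher in 9Gy1D EC, at 1.79, 1.76 and 2.52 FPKM against 0.026, 0.239 and 0.276 FPKM from 1, 10 and 11 reads (1.35, adjusted p = 0.0014). Foxc1 (2.68-fold; 1.12, adjusted p = 0.0053) and Ebf3 (4.11-fold; 0.93, adjusted p = 0.008) were higher too. Lepr stood at 6.56, 10.8 and 7.39 FPKM against 3.55, 3.69 and 0.684 FPKM (1.46, adjusted p = 0.025), a call that the second and the third 9Gy1D EC library each decided (adjusted p = 0.09 and 0.061 without them). Adipoq overlapped, at 6.34, 16.4 and 11.2 against 7.97, 6.72 and 1.4 FPKM (1.08, adjusted p = 0.14). Cspg4, not tested, ran against the others, with 24, 43 and 35 reads in Esm1+ EC and 3, 1 and 0 reads in 9Gy1D EC. The calls were 6 of 7 tested genes, where 43.7% of all genes passed, and Ebf3, Pdgfrb and Tagln entered the test only through 9Gy1D EC. Lepr, at 0.684 FPKM in the third Esm1+ EC library, also needed 9Gy1D EC to enter.

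Endothelial markers moved the same way, 11 of 12 higher in 9Gy1D EC (sum 3712 to 5353 against 1026 to 1956 FPKM), and their part was not tested. Scaled to those markers, which made 84.3% of all genes called, nearly all of them lower, Tagln was the 1 member called (2.63, adjusted p = 0.00011), while Lepr stood at 0.09 (adjusted p = 0.83) and Adipoq, Foxc1 and Acta2 turned to -0.44, -0.33 and -0.69. Of 8 tested mural genes 6 were higher in 9Gy1D EC, led by Myl9 at 105 ± 42.9 against 1.92 ± 0.55 FPKM (5.10, adjusted p = 9.6e-05). Pdgfb stood at 36.5 ± 10.3 against 5.96 ± 0.461 FPKM (2.40, adjusted p = 0.00024) and Klf4 at 33 ± 15.5 against 5.76 ± 0.651 FPKM. The stromal list had 7 of 12 tested genes higher and 1 lower. Of 7 tested fibroblast genes 3 were lower, a share near that of all genes called, among them Lum at 2.54 ± 3.68 against 18.1 ± 7.41 FPKM.

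**Figure D5:**
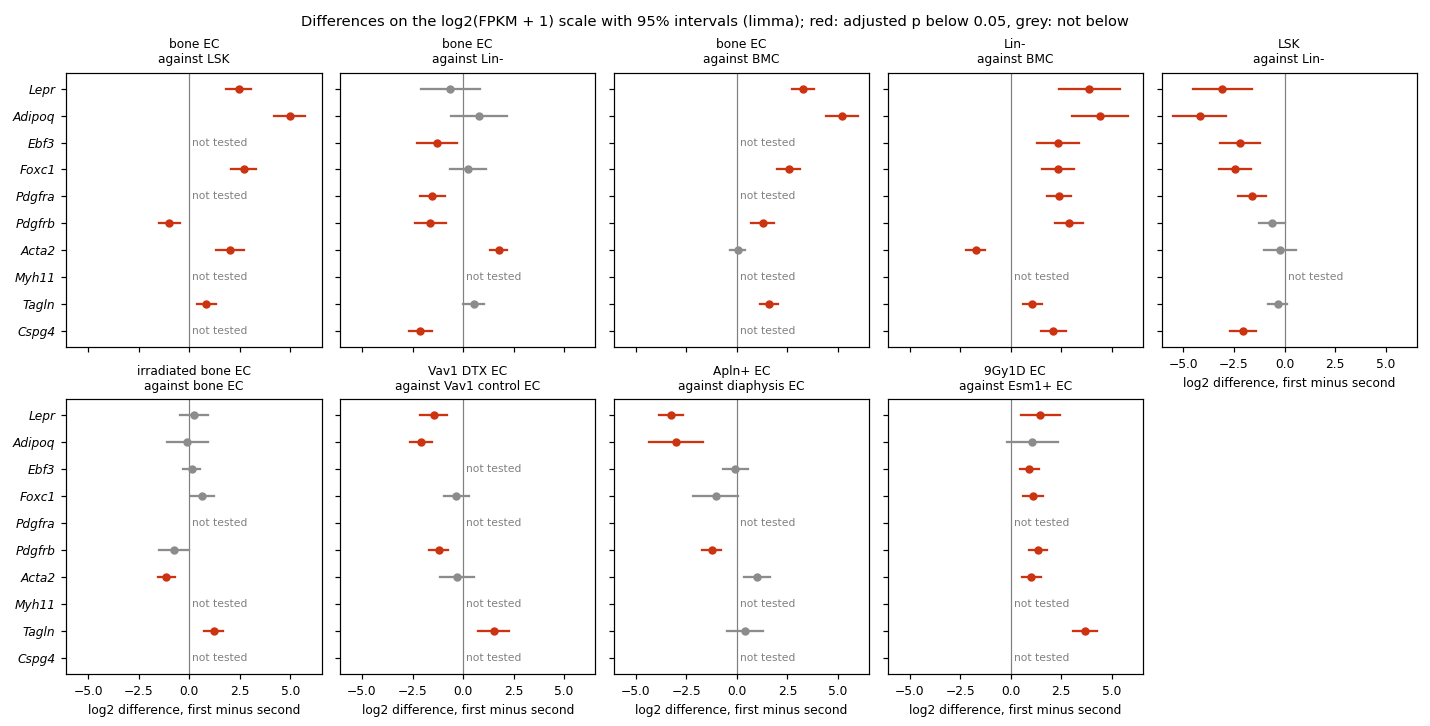
Log2 difference (x axes, first group minus second, on the log2(FPKM + 1) scale) of each gene (y axes) in the 9 comparisons, with 95% intervals from limma as lines; red marks an adjusted p below 0.05 and grey the rest. Lepr and Adipoq are red to the right of 0 in bone EC against LSK and to the left in Vav1 DTX EC and Apln+ EC, and Tagln reaches 3.68 in 9Gy1D EC against Esm1+ EC.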

How the data were processed

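Reads of 33 libraries were processed by the submitters with bcl2fastq 2.19.1.403, TopHat2 2.1.1, HTSeq 0.6.1 and DESeq2 1.18.1 on mm10, per the submitters' processing notes, and the authors deposited FPKM values per gene in 4 tables, normalized separately. The counting's strand setting is not given in the sources used here. Each table listed 38926 genes, of which 27 with names turned into dates were left out. The deposited FPKM were whole multiples of 1 read for all 38899 genes left, within 0.005 reads plus 1e-06 of the reads, which gave 1.55 to 12.29 M reads per library. Genes with at least 1 FPKM in 3 or more libraries of a comparison were tested with limma 3.58.1 (R 4.3.3, Python 3.11.15) on log2(FPKM + 1), only within a table, with Benjamini-Hochberg adjusted p-values over all genes tested and a threshold of 0.05; the scripts were tested on simulated data. A fold change on this scale understates low genes, and ratios of means are given beside it. Overlap of libraries is described without a test, and its share over all genes is not given. Alternatives were other pseudocounts, filters and scalings, TPM, a test on the recovered reads, a replicate block and leaving out each library.

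The 10 genes and the gene lists were chosen with earlier results of these data known. Named besides the members were, for each list and comparison, up to 3 called genes with the largest log2 difference and at least 5 FPKM in the higher group, the 5 genes most like each pair, and Cdh5 and Ptprc. The labels did not show that equal replicate numbers pair libraries: in no comparison did every same-numbered pair deviate together (r above 0.1).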

Additional observations from a re-analysis of the deposited data

Results flagged for a closer look

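The change of Lepr after irradiation exceeded its change in the Vav1 toxin group by 1.69 on the log2 scale (limma, adjusted p = 0.017), a tested difference between 2 contrasts: Lepr was 0.24 higher in irradiated bone EC and 1.45 lower in Vav1 DTX EC, where all 3 libraries stood below all 3 controls. Adipoq differed between the same contrasts by 1.99 (limma, adjusted p = 0.021), with all 3 Vav1 DTX EC libraries below the controls and irradiated libraries on both sides of bone EC. The groups of the 2 contrasts also differ in alleles and in the table they were normalized in. These cannot be told apart from irradiation or from what separates the Vav1 groups, which the labels do not give. Scaling to endothelial markers ended both calls (limma, Lepr 0.93, adjusted p = 0.093, and Adipoq 1.11, adjusted p = 0.17). The Adipoq call was also lost without the third Vav1 control EC or the first Vav1 DTX EC library. The share of tested members called was near the 26.7% of all genes that passed.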

How the results depend on the processing

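Of the alternatives run for single members, 982 kept direction and side of the threshold, 29 lost a call, 20 gained one and 26 turned the direction. A mean of at least 5 FPKM left fewer genes to test, so member calls were 3 in bone EC against LSK, 2 in bone EC against Lin-, 2 in bone EC against BMC, 4 in Lin- against BMC, 2 in LSK against Lin-, 2 in the Vav1 comparison and 3 in 9Gy1D EC against Esm1+ EC. Bone EC against BMC gave 8 calls with no filter and 8 on TPM. On TPM, LSK against Lin- turned to 0.22 (Pdgfrb), 0.337 (Acta2) and 0.29 (Tagln), and irradiated Adipoq to 0.16; on recovered reads (voom) Acta2 stood at 0.154 and Tagln at 0.14 in LSK against Lin-; the causes were not tested. Endothelial scaling, which put the median of all genes at -1.04 after irradiation and at -1.50 in 9Gy1D EC (0.06 and 0.001 before), gave 6 calls after irradiation, with Lepr at -0.997, Ebf3 at -0.614 and Foxc1 at -0.524. In 9Gy1D EC it gave 1 call, with Adipoq at -0.439, Foxc1 at -0.325 and Acta2 at -0.692, and Ebf3 turned to -0.257 in the difference between the contrasts. Over all genes, the share of calls that were higher moved on TPM from 49.0% to 17.6% (bone EC against LSK), 50.8% to 69.3% (against BMC), 50.6% to 60.9% (Lin- against BMC), 56.7% to 89.6% (LSK against Lin-), 53.8% to 67.2% (irradiation), 43.0% to 67.3% (Vav1), 38.0% to 27.2% (Apln+ EC) and 47.2% to 64.7% (9Gy1D EC), and with endothelial scaling to 3.0% (irradiation), 8.07% (Vav1) and 3.19% (9Gy1D EC). Calls over all genes went from 3065 to between 1124 and 1199 in the Vav1 comparison without a control library, and from 890 to 3835 in Apln+ EC without its first library or to between 149 and 182 without a diaphysis EC library. The adipo-stromal minus mural level, with a pseudocount of 0.1 chosen after seeing the data, was 3.933 (bone EC), 4.556 (irradiated), 3.552 (Vav1 control), 1.278 (Vav1 DTX), 5.315 (diaphysis), 1.382 (9Gy1D) and 1.387 (Esm1+). With 5, also chosen then, it was -0.61 (BMC), 1.82, 2.198, 1.575, 0.324, 2.879, 0.079 and -0.176 in the same order. Leaving out 1 library gave 1 to 5 calls in bone EC against BMC, 2 to 9 in Lin- against BMC, 3 to 6 in LSK against Lin-, 2 to 5 in the Vav1 comparison, 1 to 5 in Apln+ EC, 2 to 6 in 9Gy1D EC and 1 to 3 in the difference between the contrasts; a gene read in 1 group only then has fewer than the 3 libraries the filter asks for, so fewer members are tested. Its ranges that cross 0 were -1.348 to 0.003 (Lepr) and -0.153 to 0.522 (Foxc1) in bone EC against Lin-, -0.048 to 0.193 (Acta2) in bone EC against BMC, -0.452 to 0.143 (Acta2) in LSK against Lin-, -0.006 to 0.488 (Lepr) and -0.501 to 0.179 (Adipoq) after irradiation, -0.252 to 0.153 (Ebf3) in Apln+ EC and -0.631 to 0.01 (Tagln) between the contrasts. With a replicate block all 73 member results kept direction and side (Lepr -1.45, adjusted p = 0.033 in the Vav1 comparison); the numbers share no label that pairs libraries, and at most 2 of 3 libraries correlated best with their own number. Genes of a few reads, such as Myh11, Pdgfra and BMC Tagln, are limited by depth.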

Other observations

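Skeletal muscle genes stood high in single libraries. Acta1, skeletal actin, which was singled out after its values were seen, was 0, 797.5 and 0.385 FPKM in bone EC and 127.8, 2835 and 1.99 FPKM in irradiated bone EC, and the library with the most Acta1 was not the one with the most Acta2 or Tagln in either group. In 9Gy1D EC the third library held 165.8 FPKM of Acta1 and also the most Acta2, at 39.0 FPKM, while Tagln was highest in the second, which held 0.214 FPKM of Acta1.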
